A study of Oryctolagus cuniculus with 24 samples.

Results

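Peripheral blood mononuclear cells (PBMCs) express a set of enzymes that build cholesterol, and 4 genes of this set, FDFT1, SQLE, LSS and CYP51A1, could be followed in rabbit PBMCs after stimulation. The set was defined by name and held 8 genes. A gene was kept when a probe of the array, other than a control probe, carried its symbol directly or through the gene table of RefSeq. HMGCS1, FDPS, IDI1 and INSIG1 had no probe by this rule and were not analysed here. A probe described as farnesyl diphosphate synthase was left out because its gene number belongs to the neighbouring gene RUSC1 in the RefSeq table. The array measured 28911 genes in all, of which 9089 had a gene symbol.

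PBMCs are the lymphocytes and monocytes that Ficoll separation recovers from blood. The donors were 4 female adults of the New Zealand White breed, called rabbits 1, 2, 4 and 5 here, and the cells were cultured in medium with fetal bovine serum, which itself carries lipoproteins. Cells of each rabbit received buffer only (mock-stimulated), LPS at 1 µg/mL, or PMA at 10 ng/mL together with ionomycin at 1 µg/mL, for 4 h (T4) or 24 h (T24). LPS is a bacterial cell wall component that monocytes sense. PMA, a phorbol ester, switches on protein kinase C, and ionomycin carries calcium into cells, and together they activate T cells without an antigen. This gave 6 groups of 4 arrays, with the same 4 animals in every group.

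Cholesterol is made from acetyl-CoA by a long chain of enzymes. The chain runs through mevalonate to farnesyl diphosphate, and FDFT1 (squalene synthase) joins molecules of farnesyl diphosphate to squalene, which commits them to sterols. SQLE (squalene epoxidase) adds an oxygen to squalene, LSS (lanosterol synthase) closes the rings to lanosterol, and CYP51A1, a cytochrome P450, demethylates lanosterol. The genes of the chain share a regulator, SREBP2, the product of SREBF2, which is released from the endoplasmic reticulum when cell cholesterol is low. Lymphocytes that start to divide are known to raise sterol synthesis for new membrane.

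The 4 genes were read by 10 probes of 60 bases, each spotted once, at positions that the files give on oryCun2. The 3 probes of SQLE lie end to end on the plus strand of chromosome 3 between 140735466 and 140735645. The 4 probes of FDFT1 lie on the minus strand of chromosome 2 between 38160875 and 38162803, and 3 of them overlap in a chain by 20 bases. Of those, 2 cover a genomic span of 1786 bases, far more than their own length, so that their alignments are split. LSS has 1 probe, at chr14:163794876-163794935 on the plus strand. The 2 probes of CYP51A1 cover chr10:36650725-36650824 on the plus strand and share 20 bases. The positions come without exon or UTR labels. The probe sequences of CYP51A1, the gene with the most stable change, and of LSS, which rests on a single probe, follow, with the bases shared by both CYP51A1 probes in capitals.
CYP51A1, upstream probe: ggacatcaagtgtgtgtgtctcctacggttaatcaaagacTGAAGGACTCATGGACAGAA
CYP51A1, downstream probe: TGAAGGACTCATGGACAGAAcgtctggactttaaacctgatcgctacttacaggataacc
LSS: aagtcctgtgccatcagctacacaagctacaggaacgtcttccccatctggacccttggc
The upstream probe ends with the stretch with which the downstream probe begins, so that both report on 1 short part of the transcript and are not independent measurements.

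Levels are given as the log2 of the median spot intensity minus the median log2 of the array, averaged over the probes of a gene. A level of 0 is thus the brightness of the median spot of the array. Because probes differ in brightness, levels of the 4 genes were compared between groups within a gene, never between genes. The sums of marker genes given below weigh the genes with the brightest probes most. Between 51.4 and 62.3% of the spots were well above background on an array, and the 4 genes were well above background on all 24 arrays. The arrays lie on 3 slides, each with 1 or 2 arrays of all 6 groups. Differences within a slide mostly set arrays of different rabbits against each other. They mix slide and animal and are not replicates. A gene was called differentially expressed (DE) when the adjusted p from limma, with Benjamini-Hochberg adjustment over 28794 genes, was under 0.05. In these bulk samples, fewer cells of a type and less RNA per cell cannot be told apart.

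PMA-Ionomycin raised CYP51A1 at both times and SQLE at T24. None of the 4 genes was called after LPS at either time. In mock-stimulated cells, LSS rose from T4 to T24. FDFT1 stood lowest at T4 after LPS, where the difference from mock missed the threshold, and its levels in the 3 groups of T24 overlapped.

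**Figure D1:**
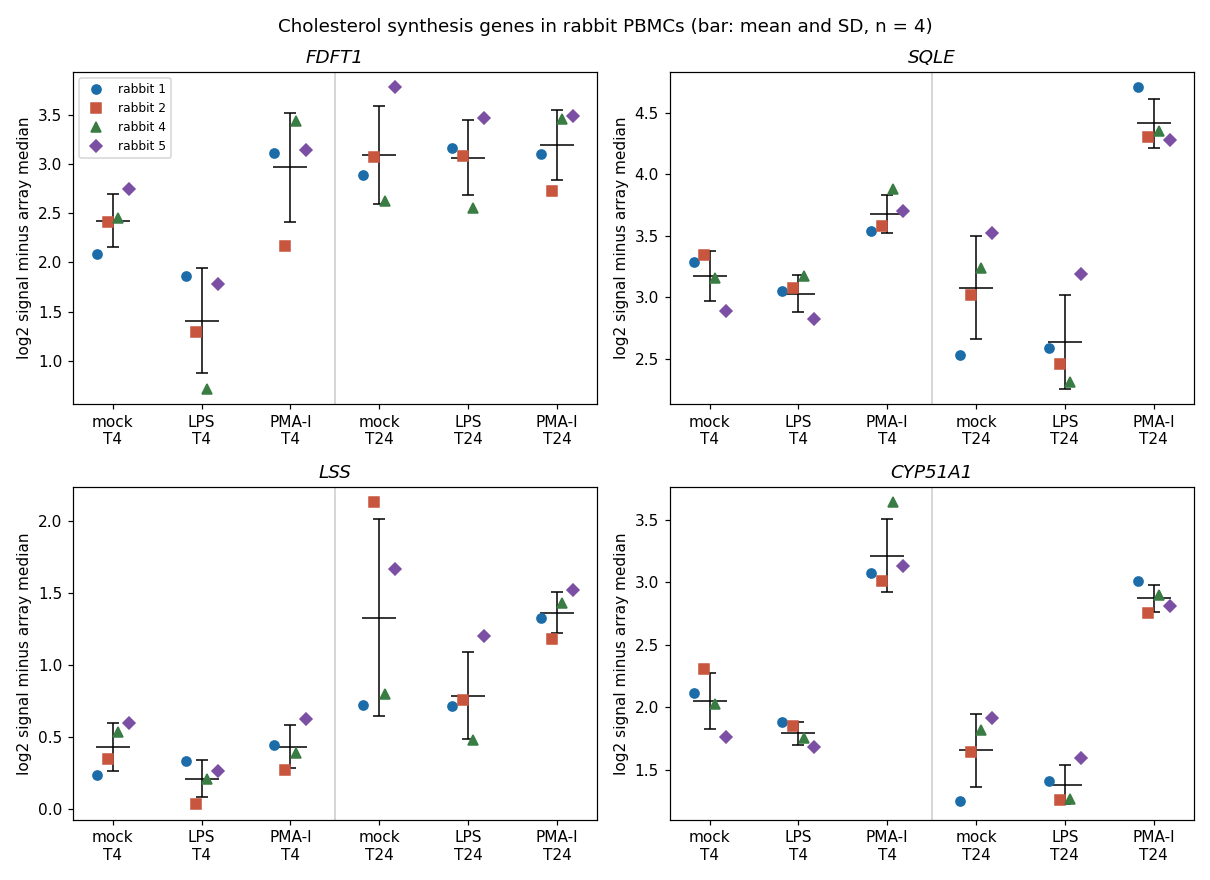
Levels of the 4 genes (y axis, log2 signal minus the array median) in each group (x axis; PMA-I is PMA-Ionomycin), with 1 symbol for each rabbit and a black mark and bar for the mean and SD of 4 arrays. The 4 CYP51A1 levels after PMA-Ionomycin lie above all others at both times, the SQLE levels do so at T24, and the FDFT1 levels at T4 after LPS lie between 0.71 and 1.86, below every other level of that gene.

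CYP51A1 showed the clearest difference. In mock-stimulated PBMCs at T4, its levels were 2.11, 2.31, 2.02 and 1.76 in rabbits 1, 2, 4 and 5. After PMA-Ionomycin at T4 they were 3.07, 3.01, 3.64 and 3.13 in the same order, all above the highest mock-stimulated value. The log2 fold change was 1.16 with an SE of 0.15 (2.24-fold; limma adjusted p = 2.88e-06), and all 4 rabbits showed it. CYP51A1 was the 1 of 4 cholesterol synthesis genes called at T4, where 22.9% of all genes were called.

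The difference persisted at T24. Mock-stimulated levels of CYP51A1 were then 1.25, 1.64, 1.81 and 1.91, and levels after PMA-Ionomycin were 3.01, 2.76, 2.90 and 2.81. The groups did not overlap. The log2 fold change was 1.22 with an SE of 0.15 (2.32-fold; limma adjusted p = 6.21e-07), and the rabbits showed 1.76, 1.11, 1.09 and 0.90. Both overlapping probes were called, with log2 fold changes of 1.44 for the downstream probe and 0.99 for the upstream probe at T24, and of 1.26 and 1.07 at T4. Within the 3 slides, where stimulated and mock-stimulated arrays came from different rabbits, the difference was 0.77 to 1.57 at T4 and 1.15 to 1.51 at T24. CYP51A1 levels after LPS were 1.88, 1.85, 1.75 and 1.68 at T4 and 1.41, 1.25, 1.26 and 1.59 at T24. These overlapped the mock-stimulated levels of the same time, and the log2 fold changes were -0.26 (95% interval -0.57 to 0.054; limma adjusted p = 0.476) and -0.27 (95% interval -0.59 to 0.039; limma adjusted p = 0.561).

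SQLE, often named as a second control point of the pathway, followed with a later difference. At T4, mock-stimulated PBMCs gave SQLE levels of 3.29, 3.34, 3.16 and 2.89, and PMA-Ionomycin gave 3.54, 3.58, 3.88 and 3.70. The lowest stimulated value was above the highest mock-stimulated value, with a log2 fold change of 0.51 and an SE of 0.19, but the limma adjusted p of 0.0552 missed the threshold. Of its 3 probes, 1 was called at T4, with a log2 fold change of 0.61 against 0.44 and 0.47 for the others. In 3 of 16 alternatives SQLE was called. The limma adjusted p was 0.0279 in a fit of these 8 arrays alone, 0.0398 without dim probes and 0.0168 with array weights. These fits called 5735, 6855 and 7848 of all genes, against 6583 in the main fit. The other 13 did not call SQLE. Over the 16 its log2 fold change was 0.33 to 0.60, with a limma adjusted p up to 0.273.

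By T24 the SQLE difference was larger. Mock-stimulated levels were 2.53, 3.01, 3.24 and 3.52, and PMA-Ionomycin levels were 4.71, 4.31, 4.36 and 4.28. All stimulated values exceeded all others of this gene. The log2 fold change was 1.34 with an SE of 0.19 (2.53-fold; limma adjusted p = 3.55e-06), with 2.18, 1.29, 1.12 and 0.76 in rabbits 1, 2, 4 and 5. The 3 probes gave 1.31, 1.31 and 1.40. Within the 3 slides, where stimulated and mock-stimulated arrays came from different rabbits, the differences were between 1.30 and 1.78. SQLE and CYP51A1 were the 2 of 4 genes called at T24, where 33.7% of all genes were called and 22.2% were called higher.

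The change of the SQLE difference between the times was tested as an interaction. It was 0.83 larger at T24 than at T4 on the log2 scale (SE 0.26, limma adjusted p = 0.0246), with 1.94, 1.06, 0.39 and -0.056 in the 4 rabbits. SQLE was the 1 of 4 genes called in this test, beside 22.6% of all genes. The call rests on single animals. Without rabbit 1 the value was 0.46 (adjusted p = 0.368), and without rabbit 2 it was 0.76 (adjusted p = 0.171). It was also lost with quantile normalization, where the value was 0.51 (adjusted p = 0.167). For CYP51A1 the corresponding value was 0.053, with a 95% interval of -0.39 to 0.49. After LPS, SQLE levels were 3.05, 3.08, 3.17 and 2.82 at T4 and 2.59, 2.46, 2.31 and 3.19 at T24. They overlapped the mock-stimulated levels, and the log2 fold changes were -0.14 (95% interval -0.53 to 0.25; limma adjusted p = 0.772) and -0.44 (95% interval -0.83 to -0.053; limma adjusted p = 0.364), where the intervals are not adjusted for the number of genes.

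**Figure D2:**
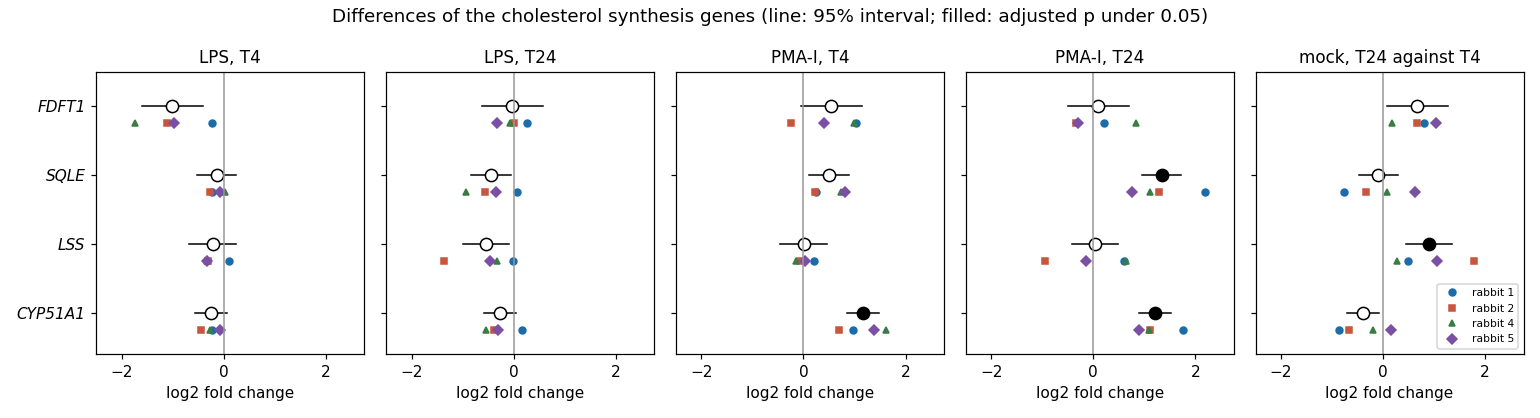
Log2 fold changes (x axis) of the 4 genes in 5 comparisons, with the limma estimate and its 95% interval as a circle and line, filled where the adjusted p was under 0.05, and the difference within each rabbit as a small symbol below it. The 4 filled circles are CYP51A1 after PMA-Ionomycin at both times (1.16 and 1.22), SQLE after PMA-Ionomycin at T24 (1.34) and LSS in mock-stimulated PBMCs between the times (0.90).

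FDFT1, which stands at the branch point into sterols, was not called against mock after either stimulation. Its mock-stimulated levels at T4 were 2.09, 2.40, 2.45 and 2.75. After LPS at T4 they were 1.86, 1.29, 0.71 and 1.78, so that every LPS value was below every mock-stimulated value. The log2 fold change was -1.01 with an SE of 0.29, and the rabbits showed -0.23, -1.12, -1.73 and -0.97. It missed the threshold (limma adjusted p = 0.0835), and none of the 4 cholesterol synthesis genes was called, beside 1.02% of all genes, or 295 genes. At an unadjusted p under 0.05 limma gave 1 of the 4 genes, FDFT1, and 4011 of all genes.

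The FDFT1 difference passed the threshold in 3 of 16 alternative fits of the same data. With the rabbit as a block the limma adjusted p was 0.0246, with array weights 0.0205, and without the PMA-Ionomycin array of rabbit 2 at T4 it was 0.0472. These fits called 1229, 1047 and 533 of all genes, against 295 in the main fit. The other 13 did not call FDFT1. Over the 16 its log2 fold change was -1.27 to -0.77, with a limma adjusted p up to 0.623. The probes gave -1.21, -1.19, -1.03 and -0.63. The 3 with the larger values correlated with each other at r between 0.989 and 0.994 over 24 arrays, and the fourth with them at 0.895 to 0.920, which describes these arrays and shares their groups. The 3 slides gave between -1.56 and -0.59. The array of rabbit 4 after LPS at T4, which had the lowest FDFT1 level, also had the lowest share of spots well above background of all arrays, 51.4%. That share was between 51.4 and 59.8% in the LPS group and between 55.2 and 60.8% in the mock-stimulated group, and its part in the FDFT1 result was not tested.

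At T24 the FDFT1 levels of all groups were close. They were 2.89, 3.07, 2.62 and 3.78 in mock-stimulated PBMCs, 3.16, 3.08, 2.55 and 3.46 after LPS, and 3.10, 2.73, 3.45 and 3.49 after PMA-Ionomycin. The 3 groups overlapped, and the 95% intervals of the log2 fold changes were -0.63 to 0.57 for LPS and -0.50 to 0.70 for PMA-Ionomycin. None of the 4 genes was called after LPS at T24, beside 1.22% of all genes. At an unadjusted p under 0.05 limma gave 2 of the 4 (SQLE and LSS, both lower) and 3125 of all genes. Within the LPS-stimulated PBMCs, FDFT1 was 1.65 higher at T24 than at T4 on the log2 scale (SE 0.29, limma adjusted p = 0.000132), a contrast that called 37.6% of all genes. The change of the LPS difference between the times was 0.99 (SE 0.41, limma adjusted p = 0.220), higher in 4 of 4 rabbits. That test called none of the 4 genes, beside 1.94% of all genes. At an unadjusted p under 0.05 limma gave 1 of the 4, FDFT1, and 4711 of 28794 genes.

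After PMA-Ionomycin at T4, FDFT1 levels were 3.11, 2.17, 3.43 and 3.14. Rabbits 1, 4 and 5 lay above all mock-stimulated values and rabbit 2 below its own. The difference from mock was 0.54 on the log2 scale with an SE of 0.29 (limma adjusted p = 0.223). Without that array it was 0.81 (adjusted p = 0.0422), with array weights 0.69 (adjusted p = 0.0256), and 1 of 4 probes was called with all arrays (0.81, adjusted p = 0.0263, against 0.43 to 0.50 for the others). The other 14 of 16 alternatives did not call this difference. Over the 16 it was 0.38 to 0.81, with a limma adjusted p up to 0.581. The array of rabbit 2 had 52.6% of spots well above background, against a median of 59.2% in its group, and the part of this in the FDFT1 value was not tested.

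**Figure D3:**
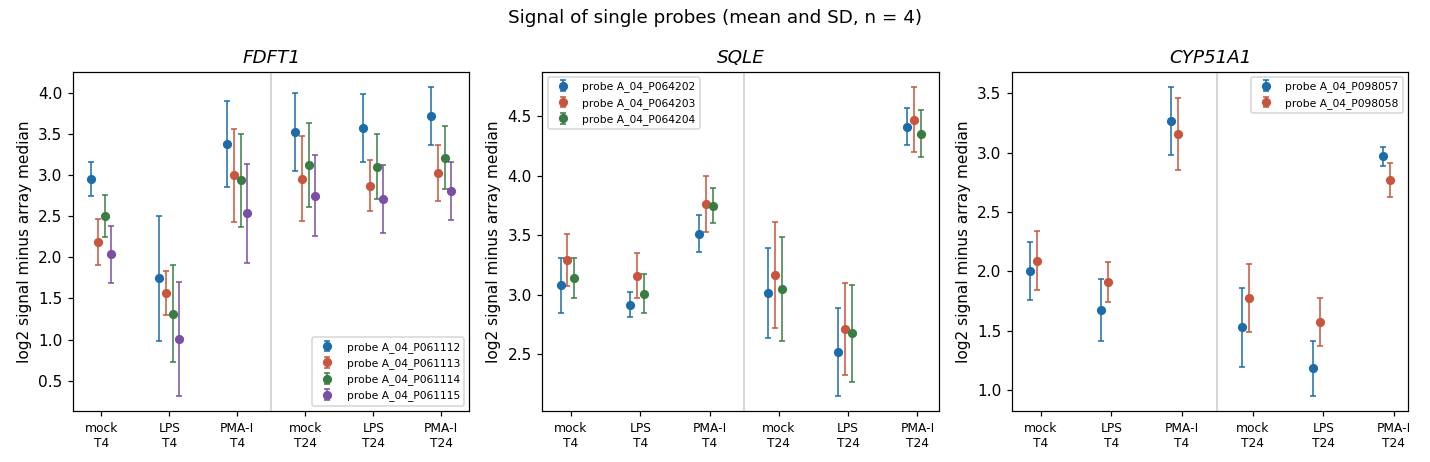
Mean and SD over 4 arrays of each probe (y axis, log2 signal minus the array median) in the 6 groups (x axis; PMA-I is PMA-Ionomycin) for the genes with more than 1 probe. The probes of a gene keep nearly the same order of groups, and the second of the FDFT1 probes along the chromosome (red) has the smallest SD at T4 after LPS and a mean of 1.57 there.

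LSS rose with time in culture. Its levels in mock-stimulated PBMCs were 0.23, 0.34, 0.53 and 0.60 at T4 and 0.72, 2.13, 0.80 and 1.66 at T24. The groups did not overlap, but rabbits 2 and 5 carried most of the rise. The log2 fold change was 0.90 with an SE of 0.22 (1.86-fold; limma adjusted p = 0.00658), with 0.48, 1.78, 0.26 and 1.06 in the 4 rabbits. Without rabbit 2 it was 0.60 and missed the threshold (adjusted p = 0.121), as it did when only the mock-stimulated arrays were fitted (adjusted p = 0.104). LSS was the 1 of 4 genes called between the times, where 12.6% of all genes were called and 7.43% were called higher. In the same comparison both measured platelet markers fell, TUBB1 by 4.35 and ITGA2B by 1.79 on the log2 scale, and 5 of 6 monocyte markers rose, with a median log2 fold change of 2.26. Their part in the LSS result was not tested.

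LSS did not differ from mock beyond the threshold after either stimulation. After PMA-Ionomycin its levels were 0.44, 0.27, 0.38 and 0.63 at T4 and 1.32, 1.18, 1.43 and 1.52 at T24, with 95% intervals of the difference from mock of -0.45 to 0.46 and -0.42 to 0.49. After LPS they were 0.33, 0.029, 0.20 and 0.26 at T4 and 0.71, 0.75, 0.47 and 1.20 at T24. The log2 fold change after LPS at T24 was -0.54 with an SE of 0.22 (limma adjusted p = 0.327). The rabbits showed -0.0071, -1.37, -0.32 and -0.46, so that rabbit 1 hardly differed. Over 16 alternatives the value was -0.72 to -0.26 and was not called. LSS at T24 varied more in mock-stimulated PBMCs, with an SD of 0.68, than after PMA-Ionomycin, with an SD of 0.14.

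The other genes did not pass the test between the times in mock-stimulated PBMCs. FDFT1 was 0.67 higher at T24 (SE 0.29, limma adjusted p = 0.159) in 4 of 4 rabbits, CYP51A1 was 0.40 lower (log2 fold change -0.40, SE 0.15, limma adjusted p = 0.0984) in 3 of 4, and SQLE differed by -0.093. CYP51A1 was called in this comparison in 5 of 16 alternatives. Among them were quantile normalization, where the value was -0.52 (adjusted p = 0.00931), and the fit without rabbit 5, where it was -0.58 (adjusted p = 0.0301). The other 11 did not call it. Over the 16 its value was -0.60 to -0.24, with a limma adjusted p up to 0.554.

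Summed levels of monocyte markers, called the monocyte signal here, differed between the groups. Of 8 listed markers 6 were measured, and their summed linear signal, in units of the array median, was 135 to 300 in mock-stimulated PBMCs at T4, 55.7 to 101 after LPS and 34.2 to 51.4 after PMA-Ionomycin. At T24 the ranges were 346 to 869, 305 to 714 and 58.8 to 115. CD14 had the highest mean level of the 6 in every group and so weighs most in these sums. Its mean was 7.38 in mock-stimulated PBMCs at T4 and 4.38 after PMA-Ionomycin, where CD68 and ITGAM differed from mock by 0.079 and 0.022. Of the 6, 3 were called lower after PMA-Ionomycin at T4 and 5 at T24, beside 22.9% and 33.7% of all genes called. After LPS 2 and 1 were called lower, beside 1.02% and 1.22%. CD14, a defining monocyte marker, differed by -3.27 on the log2 scale after PMA-Ionomycin at T24 (limma adjusted p = 3.18e-08) and by -1.55 after LPS at T4 (limma adjusted p = 0.0372). MPEG1, a pore-forming protein of macrophages, was well above background on 0 of 4 arrays after PMA-Ionomycin at T4, and no other of the 6 markers was below background on all arrays of any group. The mean of FDFT1 was 1.41 after LPS at T4 and 2.42 in mock, a difference that missed the threshold, and the monocyte signal was lower after LPS too. From T4 to T24 in mock-stimulated PBMCs the means went from 2.42 to 3.09 for FDFT1, which was not called, and from 0.43 to 1.33 for LSS, and the monocyte signal was higher at T24. The group means of FDFT1 and LSS were 3.19 and 1.36 after PMA-Ionomycin at T24, where the monocyte signal was low, and 3.09 and 1.33 in mock-stimulated PBMCs at T24, where it was highest. SQLE and CYP51A1 also had their highest means after PMA-Ionomycin, at T24 and T4. The part of cell composition in these values was not tested. T cell markers, of which 5 of 8 were measured, summed to 5.87 to 12.2 in mock-stimulated PBMCs at T24 and to 9.84 to 13.8 after PMA-Ionomycin. Platelet markers, of which TUBB1 and ITGA2B were measured of 5 listed, summed to 39.7 to 95.3 in mock-stimulated PBMCs at T4, 14.6 to 57.6 after LPS and 6.70 to 15.4 after PMA-Ionomycin, and at T24 to 2.38 to 4.84, 3.40 to 4.59 and 4.48 to 9.27. B cell markers, of which 4 of 6 were measured, did not move together. After PMA-Ionomycin CD79B fell by 3.93 at T4 (limma adjusted p = 5.46e-06) and differed by -0.29 at T24, MS4A1 fell by 1.70 and by 2.63, and BLK rose by 1.56 and by 1.75. Their sum was 236 to 548 in mock-stimulated PBMCs at T4 and 72.4 to 142 after PMA-Ionomycin, and at T24 the sums of 134 to 641 and 141 to 284 overlapped.

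In the order of the 6 group means, SQLE ran from PMA-Ionomycin at T24 (4.41 ± 0.20, SD, n = 4) through PMA-Ionomycin at T4 (3.68 ± 0.16) to mock T4, mock T24, LPS T4 and LPS T24 (2.64 ± 0.38). Only the first step, of 0.74, passed the limma test between neighbours (adjusted p = 0.00310), a contrast that called 33.7% of all genes, and it was lost under quantile normalization, the processed signal and normexp (0.30 to 0.42). CYP51A1 ran from PMA-Ionomycin at T4 (3.21 ± 0.29) and T24 (2.87 ± 0.11) to mock T4 (2.05 ± 0.23), LPS T4, mock T24 and LPS T24 (1.38 ± 0.16). The step of 0.82 from PMA-Ionomycin at T24 to mock T4 passed (limma adjusted p = 0.000118, with 32.2% of all genes called), and the other 4 steps did not. Over 16 alternatives this step of 0.82 was 0.40 to 0.94, with a limma adjusted p up to 0.0447. No neighbouring step of FDFT1 or LSS passed.

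The 4 genes split into pairs by their pattern over the arrays. SQLE and CYP51A1 correlated at r = 0.85 over 24 arrays, and again at 0.85 after the group means had been removed. FDFT1 and LSS correlated at 0.69, and at 0.55 without the group means. The other pairs ranged from 0.039 to 0.38. The arrays share 4 rabbits and 6 groups, so these values describe the arrays and were not tested.

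Other enzymes of the pathway moved with SQLE and CYP51A1 at T24 after PMA-Ionomycin. Of 12 listed enzymes 6 were measured, of which 4 rose, 1 fell and 1 was not called, beside 33.7% of all genes called and 22.2% called higher, with a median log2 fold change of 0.62 against 0.031 over all genes. With quantile normalization or the processed signal, 3 of the 6 were called. At T4 none rose and 1 fell, with a median of -0.037 against 0.046. ACAT2, which joins acetyl-CoA at the head of the pathway, rose by 1.60 on the log2 scale at T24 (SE 0.30, limma adjusted p = 0.000135), with 1.99, 1.42, 1.99 and 1.01 in the rabbits. EBP, a sterol isomerase after CYP51A1, rose by 1.21 (SE 0.29), MSMO1, a sterol methyl oxidase, by 0.80 (SE 0.27) and MVK, mevalonate kinase, by 0.45 (SE 0.13). PMVK, the kinase after MVK, differed by 0.062. MVK was well above background on 2 of 4 mock-stimulated arrays at T24 and on 4 of 4 after PMA-Ionomycin.

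LBR was the exception. It is a sterol reductase that also anchors chromatin at the nuclear envelope, and it fell by 0.91 at T4 (SE 0.18, limma adjusted p = 0.00039) and by 0.54 at T24 (SE 0.18, limma adjusted p = 0.0186), lower in 4 of 4 rabbits at both times. The PMA-Ionomycin difference grew between the times for 3 of the 6 enzymes, ACAT2, EBP and MVK, with interaction values from 0.64 to 1.24, beside 22.6% of all genes called. With quantile normalization 1 of 6 was called in that test. After LPS none of the 6 was called at either time, with medians of -0.46 against 0.058 over all genes at T4 and 0.071 against -0.031 at T24. At an unadjusted p under 0.05 limma gave 3 of the 6 at T4, beside 4011 of 28794 genes, and 1 at T24, beside 3125. ACAT2 differed by -0.84 at T4 after LPS (SE 0.30, limma adjusted p = 0.177), lower in 3 of 4 rabbits.

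**Figure D4:**
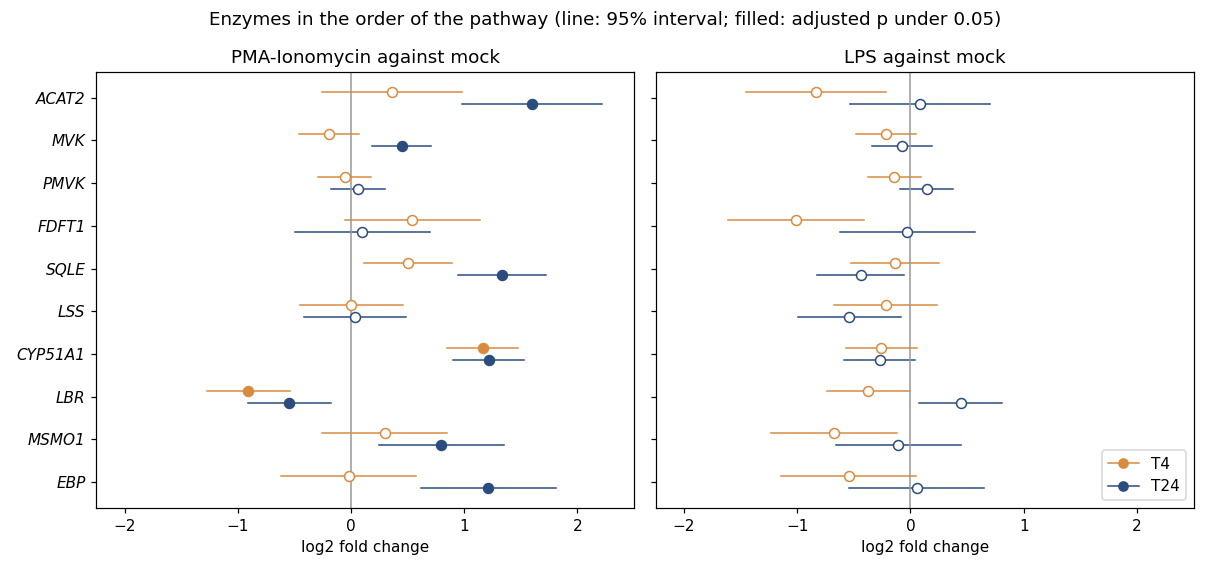
Log2 fold changes against mock (x axis) of 10 enzymes in the order of the pathway from top to bottom, after PMA-Ionomycin (left) and LPS (right), with 95% intervals as lines and filled circles where the adjusted p was under 0.05. At T24 after PMA-Ionomycin 6 of these 10 enzymes rose and LBR fell, whereas at T4 CYP51A1 was the 1 enzyme that rose.

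SREBP and its partners sense sterols in the endoplasmic reticulum. Of 10 listed genes of this group 8 were measured, and 2 rose at T24 after PMA-Ionomycin, a share close to the 22.2% of all genes called higher. At an unadjusted p under 0.05 limma gave 4 of the 8 there, beside 11310 of 28794 genes. MBTPS2, a protease that releases SREBP from the membrane, rose by 0.34 (SE 0.10, limma adjusted p = 0.00711) in 4 of 4 rabbits, and SREBF2 by 0.32 (SE 0.11, limma adjusted p = 0.0248) in 3 of 4. SCAP, which escorts SREBP to its proteases, differed by 0.39 (limma adjusted p = 0.107) and INSIG2, which retains SCAP in the endoplasmic reticulum, by -0.35 (limma adjusted p = 0.0552). None of the 8 was called at T4 or after LPS, where limma gave 1 of the 8 at an unadjusted p under 0.05 for each stimulation at T4 (beside 8746 of 28794 genes for PMA-Ionomycin and 4011 for LPS) and 0 for LPS at T24 (beside 3125). The median of the list at T24 after PMA-Ionomycin was -0.067 against 0.031 over all genes.

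Among genes of fatty acid synthesis and lipid supply that SREBPs also regulate, 7 of 11 were measured and ELOVL6 was the 1 gene called against mock, at T24 after PMA-Ionomycin, where 33.7% of all genes were called. ELOVL6, which elongates fatty acids, rose by 1.75 after PMA-Ionomycin at T24 (SE 0.22, limma adjusted p = 7.66e-07), with 0.80, 2.41, 1.59 and 2.20 in the rabbits, and by 0.84 between the times in mock-stimulated PBMCs (SE 0.22, limma adjusted p = 0.0109). ELOVL6 was well above background on 1 of 4 mock-stimulated arrays at T4 and on 4 of 4 at T24.

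Farnesyl diphosphate also feeds protein prenylation and ubiquinone, and 9 of 11 genes of these branches were measured. After PMA-Ionomycin, 3 rose and 3 fell at T4, and 3 rose and 1 fell at T24, beside 22.9% and 33.7% of all genes called. RABGGTB, a subunit of the transferase that prenylates Rab proteins, rose by 1.04 at T4 and by 2.16 at T24 (SE 0.15 at both times). PDSS2, which makes the ubiquinone side chain, fell by 0.92 at T4 and rose by 1.81 at T24. COQ2, the next enzyme of ubiquinone synthesis, fell by 1.08 at T4, and FNTA, the shared subunit of the farnesyl and geranylgeranyl transferases, rose by 0.64. PGGT1B, the partner of FNTA in geranylgeranylation, fell by 0.93 at T24, and GGPS1, which makes geranylgeranyl diphosphate, rose by 0.38. None was called after LPS, where limma gave 2 of the 9 at T4 and 1 at T24 at an unadjusted p under 0.05, beside 4011 and 3125 of 28794 genes.

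Most measured genes of a list on cholesterol export and trafficking, which includes hydrolysis and control genes, fell at T24 after PMA-Ionomycin. Of 11 listed genes 8 were measured, and 1 rose and 5 fell at T24, while 2 rose and 2 fell at T4, beside 33.7% and 22.9% of all genes called. In the same comparison at T24, 5 of the 6 measured monocyte markers fell, with a median log2 fold change of -3.04, and their summed signal was 58.8 to 115 against 346 to 869 in mock-stimulated PBMCs. The part of cell composition in the fall of these genes was not tested. LIPA, the lysosomal lipase that frees cholesterol from esters, fell by 1.53 at T4 and fell by 4.12 at T24. MYLIP, a ubiquitin ligase that degrades lipoprotein receptors, fell by 1.57 at T4 and fell by 3.53 at T24. NPC1, which moves cholesterol out of lysosomes, rose by 2.26 at T4 (SE 0.36) and fell by 2.39 at T24 (SE 0.36). CH25H, which makes the oxysterol 25-hydroxycholesterol, rose by 3.30 at T4 and by 1.50 at T24 (SE 0.24 at both times). ABCA1, the cholesterol exporter, rose by 1.63 after LPS at T24 (SE 0.38, limma adjusted p = 0.0290) and was the 1 gene of the 8 called after LPS at T24, beside 1.22% of all genes, while none was called at T4, beside 1.02%. At an unadjusted p under 0.05 limma gave 3 of the 8 at each time after LPS. Of all 28794 genes, 4011 passed this limit at the earlier time and 3125 at the later time. After PMA-Ionomycin at T24 ABCA1 fell by 1.88 (SE 0.38, limma adjusted p = 0.000303), with 2 of 4 arrays well above background. Between the times in mock-stimulated PBMCs 3 of the 8 rose, beside 12.6% of all genes called. They were LIPA (2.34), NPC2, the lysosomal partner of NPC1 (2.14), and NPC1 (1.73). The monocyte signal was also higher at T24 in that comparison. It was lower than in mock after PMA-Ionomycin at T4, where NPC1 rose and LIPA and MYLIP fell. The part of cell composition in these values was not tested.

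Cell cycle genes differed strongly from mock at T24, where the mock level itself had fallen. All 7 measured of 10 listed fell between the times in mock-stimulated PBMCs, with a median log2 fold change of -2.18, beside 12.6% of all genes called. All 7 were higher than mock at T24 after PMA-Ionomycin, beside 22.2% of all genes called higher, with a median of 3.66, led by CDK1, the mitotic kinase (4.71), and CCNB1, its cyclin (4.29). The mean level of CDK1 was 3.52 in mock-stimulated PBMCs at T4, 1.08 at T24 and 5.79 after PMA-Ionomycin at T24, and that of CCNB1 was 4.03, 1.56 and 5.85. After PMA-Ionomycin at T4 none of the 7 rose and 3 fell, beside 22.9% of all genes called. The part of cell division in the values of the cholesterol synthesis genes was not tested.

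The genes whose pattern was most like the 4 were found by Pearson correlation of 6107 genes with the mean standardised profile of the 4 over 24 arrays. The 8 highest were SLC5A6 (r = 0.926), a carrier of biotin and pantothenate, MRPL18 (0.912), a mitochondrial ribosomal protein, TUFM (0.909), a mitochondrial elongation factor, KARS1 (0.908), the lysyl-tRNA synthetase, IFT52 (0.906), BTBD1 (0.901), SREBF2 (0.896) and CLNS1A (0.896). Of the 8 sterol sensing genes, SREBF2 and SCAP (rank 25, r = 0.875) stood highest, and INSIG2 and ERLIN2 had r of -0.14 and -0.31. Of the 6 other enzymes, ACAT2 stood at rank 89 (0.849), MSMO1 at 425 (0.748), EBP at 549 (0.724), MVK at 1105 (0.619), PMVK at 3256 (0.168) and LBR at 4823 (-0.209). The profile averages genes that differ among themselves, so a high value here describes likeness to the mean and not to each of the 4.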

How the data were processed

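The authors deposited the scanner output of 24 one-colour Agilent arrays, in which the median signal, mean signal and background are uncorrected spot intensities (per the file headers, Feature Extraction 10.7.3.1, build oryCun2). A second file that the authors deposited holds log2 values, which match the median signal on a log2 scale after subtraction of the array's mean over its spots. Its column medians lay between -1.11 and -0.811. Of the 42089 probes, 9684 were named by RefSeq accession, 8879 by gene number and 1938 by the name that the files give, using a RefSeq gene list of the assembly mOryCun1.1 (names only).

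Control and outlier spots were left out, log2 median intensities were centred on the array median, and spots were averaged per probe and probes per gene. A model with 6 group means was fitted to 24 arrays with lmFit and eBayes of limma 3.58.1 (R 4.3.3, data.table version 1.17.8; Python 3.11.15, numpy 2.4.6, pandas 2.3.3, matplotlib 3.10.9), with Benjamini-Hochberg adjustment over 28794 genes. On simulated data for PMA-Ionomycin at T24 over 28794 genes, 77% of genes changed by 1 on the log2 scale and 97% of those changed by 2 were recovered, and 3.87% of calls were false. The simulation changed 200 genes, 100 by each size, while the data gave 9702 calls. Its rates thus need not hold for this comparison. The number of arrays limits the precision.

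A rabbit number stands for the same animal in all groups, which pairs the samples. Deviations from group means correlated at a median of 0.228 between arrays of 1 rabbit (60 pairs) and -0.0755 between rabbits (180 pairs). As in the study's methods, pairing was not part of the model, and blocking on the rabbit was tried as an alternative. Genes named are the 4 members, up to 3 called genes of each list with the largest change in each comparison with mock, and the 8 genes most like the mean of the members, with genes outside this rule named after their values were seen. Members, lists and tests were chosen with earlier results of these data known. Alternatives were other scalings, the deposited table, filters, blocks, array weights, moderated variances with trend, single probes, omission of each rabbit and a required fold change of at least 2. Leaving out the PMA-Ionomycin array of rabbit 2 at T4 was chosen after the data were seen. Some items of this pathway are not reported here.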

Additional observations from a re-analysis of the deposited data

Results flagged for a closer look

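The difference of SQLE between PMA-Ionomycin and mock changed between the times by 0.83 on the log2 scale (limma interaction, adjusted p = 0.0246), from 0.51 at T4 to 1.34 at T24, and was larger at T24 in 3 of 4 rabbits. In the 24 groups of 4 levels of the cholesterol synthesis genes, no array stood apart by Dixon's test at its 95% critical value of 0.829. By chance about 1 in 20 groups would.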

How the results depend on the processing

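CYP51A1 after PMA-Ionomycin at both times and SQLE at T24 were called under all 16 alternatives beside single probes, with log2 fold changes of 1.01 to 1.32, 0.89 to 1.32 and 0.84 to 1.53. The count of the 4 genes called was 2 for PMA-Ionomycin at T24 and 0 for LPS at T24 under all of these, and 2 and 0 when a fold change of at least 2 was required. After LPS at T4 it was 0, and 1 with array weights, with the replicate block of rabbits and without the PMA-Ionomycin array of rabbit 2 at T4 (0 to 1 with single rabbits or that array left out). For PMA-Ionomycin at T4 it was 1, but 2 without dim probes, with only the arrays of the comparison and without that array, and 3 with array weights (1 to 2 with single rabbits or that array left out). Between the times in mock-stimulated PBMCs it was 1, but 2 with quantile normalization, the processed signal, normexp and array weights, and 0 with only those arrays or a fold change of at least 2 (0 to 2 with rabbits left out). For the change of the LPS difference it was 0, and 1 with array weights. For that of PMA-Ionomycin it was 1, and 0 with quantile normalization, the processed signal and normexp (0 to 1 with rabbits left out). The rabbit as a block changed no other call of the 4 genes. Among the other lists it gave 1 call instead of 0 for export and trafficking after LPS at T4, for cell cycle genes after LPS at T24, for fatty acid genes after PMA-Ionomycin at T4 and for other enzymes between the mock-stimulated groups, where fatty acid genes had 2 instead of 1. For the change of the LPS difference it gave 1 instead of 0 for other enzymes, 2 instead of 0 for export and trafficking and 2 instead of 1 for cell cycle genes, and for that of PMA-Ionomycin 2 instead of 1 for fatty acid genes. ABCA1 after LPS at T24 was not called with the processed signal. The causes were not tested.

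Values that changed sign under an alternative were not called. For quantile normalization, the processed signal and normexp in turn, SQLE after LPS at T4 was 0.022, 0.053 and 0.0010. In the same order, after PMA-Ionomycin LSS was -0.020, -0.10 and -0.0037 at T4 and -0.088, -0.22 and -0.10 at T24, and FDFT1 at T24 was -0.27, -0.19 and -0.26. The change of the PMA-Ionomycin difference between times was -0.068, -0.11 and -0.10 for LSS and -0.13, -0.11 and -0.13 for CYP51A1. With the deposited table, after PMA-Ionomycin LSS was -0.072 (T4) and -0.11 (T24), FDFT1 at T24 -0.045, and the changes between times -0.038 for LSS and -0.018 for CYP51A1. With the slide as a block, FDFT1 after LPS at T24 was 0.012, LSS after PMA-Ionomycin at T24 -0.0092, and the change between times 0.037 for CYP51A1 after LPS and -0.020 for LSS after PMA-Ionomycin. FDFT1 after LPS at T24 was 0.080 with array weights and 0.047 for 1 probe, and the upstream CYP51A1 probe gave a change between times of -0.073 after PMA-Ionomycin. With rabbits left out, LSS after PMA-Ionomycin spanned -0.065 to 0.055 at T4 and -0.16 to 0.36 at T24, FDFT1 -0.14 to 0.25 at T24 and -0.13 to 0.069 after LPS at T24, SQLE between the mock-stimulated groups -0.33 to 0.13, and the changes between times -0.15 to 0.074 for CYP51A1 after LPS, -0.22 to 0.33 for LSS and -0.20 to 0.25 for CYP51A1 after PMA-Ionomycin. Without the array of rabbit 2 at T4 the last 2 were -0.022 and -0.016.

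The processed signal moved the median of all genes by -0.29 for PMA-Ionomycin at T24 and by -0.20 at T4, so that values under it are relative to that shift.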
